A study of Mus musculus with 22 samples.

Results

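The 42 genes described here encode the machinery that copies DNA, together with the E2F activators and E cyclins that switch its genes on at the start of S phase. They were listed by name, and each was read from the probe set with the highest mean among those annotated to that gene alone. Of the 42 genes, 41 were measured among the 18193 genes with such a probe set, and Chaf1a was not analysed here. The RNA was that of primary mouse fibroblasts cultured from embryos (MEFs), and it was hybridised to Affymetrix whole-genome mouse arrays, on which a probe set is a group of short probes to a transcript. The 22 arrays fell into 4 groups by their titles. Double arrays (n = 7) came from MEFs in which adenoviral Cre both activated a mutant oncogene and deleted Wt1, the gene of a zinc finger transcription factor. Oncogene arrays (n = 5) came from MEFs carrying the oncogene behind a Cre-removable stop, which were given the same Cre virus. Wt1-null arrays (n = 5) came from MEFs with floxed Wt1 alleles (Wt1 f/f) given Cre. Control arrays (n = 5) came from MEFs labelled wild type and given an adenovirus with GFP. RNA was taken 7 days after infection in all groups. Every comparison with the control therefore also compares Cre virus with GFP virus, and the genotype and the virus cannot be told apart there. No label tells if the replicates of a group were different embryos or different dishes, and the p-values rest on a spread between arrays that may in part be technical. In the text, double 4 is the double array with replicate number 4, and so on.

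Replication starts at origins, which the origin recognition complex marks and to which Cdc6 and Cdt1 bring the ring-shaped MCM helicase. The kinase Cdc7 with its partner Dbf4, together with cyclin-dependent kinases, then turns the loaded ring into a moving helicase with Cdc45 and the GINS complex, and polymerases follow on a sliding clamp. Most of these genes are transcribed in late G1 and S phase, when E2F factors are released from the Rb family of repressors. Resting fibroblasts carry little of the RNA of many of them, and dividing fibroblasts carry much.

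The promoters of the members held the letters of the E2F site more often than those of all genes, and a few are shown here because E2F control defines much of the list. Sequences were RefSeq promoters of mouse build GRCm38.p6, from 250 bases before to 50 bases after each gene's start, and 34 of the 41 members had an entry. Mcm4, Gins1, Gins2, Pole, Prim2, Rfc2 and Ccne2 had none. TTTCGCGC or TTTGGCGC, on either strand, lay in a promoter of 11 of the 34 members (32.4%), against 251 of 27025 genes in the table (0.929%). The 11 were Mcm3, Mcm5, Mcm6, Mcm7, Orc1, Cdt1, Pola1, Rfc3, Lig1, Uhrf1 and E2f2. A gene counted if any of its promoters held the letters, and the 34 members had 41 promoters. CCAAT, the letters bound by NF-Y, lay in 20 of the 34 (58.8%), against 41.1% of all genes. TTTGAA, the core of the CHR element of many mitosis genes, lay in 6 (17.6%), against 20.2%, and TATAAA in 2 (5.88%), against 15.7%. A match is a run of letters, not a shown binding site.

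Mcm5, Mcm6 and Orc1 were chosen to be shown as loading genes, Pola1 and Uhrf1 as genes with large differences between groups, and Dbf4 because it had the largest called difference. Each stretch is read 5′ to 3′ along the strand of its gene. Capitals mark the E2F letters in every stretch but that of Dbf4, where no E2F letters were found in the window and capitals mark the CHR letters read on the other strand. In Mcm5 and in the left block of Mcm6, a match on each strand overlaps the other. The stretches are chr8:75109306-75109417 on the plus strand for Mcm5, chr1:128359695-128359865 on the minus strand for Mcm6 and chr4:108579377-108579484 on the plus strand for Orc1. They are chrX:93632236-93632343 on the minus strand for Pola1, chr17:56304078-56304185 on the plus strand for Uhrf1 and chr5:8422667-8422769 on the minus strand for Dbf4. The capitals begin at positions -153 in Mcm5, -110 and -47 in Mcm6, -27 in Orc1, -138 in Pola1, -185 in Uhrf1 and -3 in Dbf4, counted from 0 at the gene's start.
Mcm5: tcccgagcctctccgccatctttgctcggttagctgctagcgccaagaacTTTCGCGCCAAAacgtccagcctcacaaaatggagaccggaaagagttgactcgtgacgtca
Mcm6: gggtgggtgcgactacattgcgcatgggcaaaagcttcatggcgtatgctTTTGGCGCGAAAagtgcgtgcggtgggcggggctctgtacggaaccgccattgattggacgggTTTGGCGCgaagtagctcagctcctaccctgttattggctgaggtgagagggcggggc
Orc1: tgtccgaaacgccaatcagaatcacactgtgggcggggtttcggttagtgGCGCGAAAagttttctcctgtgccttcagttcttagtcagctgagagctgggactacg
Pola1: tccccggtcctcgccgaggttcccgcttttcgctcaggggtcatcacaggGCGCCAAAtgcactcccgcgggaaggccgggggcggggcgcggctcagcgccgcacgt
Uhrf1: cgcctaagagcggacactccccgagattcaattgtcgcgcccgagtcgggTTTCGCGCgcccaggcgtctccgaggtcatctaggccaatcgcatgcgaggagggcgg
Dbf4: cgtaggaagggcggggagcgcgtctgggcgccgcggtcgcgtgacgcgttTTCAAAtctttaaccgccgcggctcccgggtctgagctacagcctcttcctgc
The array measures RNA and not binding, and the ranges of the members with and without the E2F letters overlapped in every comparison. Between double and oncogene arrays the median log2 difference was -0.63 for the 11 members with E2F letters and -0.56 for the 23 without. Between double and control arrays the medians were -0.48 with the letters and -0.22 without, and between double and Wt1-null arrays -0.22 with and -0.34 without.

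The values are log2 units, in which 1 unit is a 2-fold change, and the array medians lay between 6.23 and 6.33. A few arrays stood apart and bear on the results. Wt1-null 2 and double 2 were nearly the same measurement. The SD of their difference was 0.149 over the 34945 probe sets annotated to 1 gene, against 0.295 for the next closest pair from different groups. Over the 41 members, Wt1-null 2 minus double 2 ran from -0.24 to 0.11. The labels do not account for this or tell which array, if either, is mislabelled. The medians and counts of calls with Wt1-null arrays are therefore also given without Wt1-null 2, and the mean of the double arrays without double 2. Wt1-null 3 and 4 were close as well (SD 0.158), against 0.242 for the next closest pair within a group. Whether they are independent samples is not settled here, and they are counted as 2 arrays unless stated. Double 4 and oncogene 4 had the lowest mean correlation with the other arrays (0.931 and 0.958). The probe set of Wt1 read 4.45 ± 0.19 in double, 4.59 ± 0.06 in oncogene, 4.47 ± 0.15 in Wt1-null and 4.38 ± 0.10 in control arrays (SD, n = 7, 5, 5 and 5), at the 7.79th percentile of gene means, and gave no check of the deletion. Fibroblast markers averaged 13.2, 13.4, 13.0 and 13.0 in double, oncogene, Wt1-null and control arrays. Single ones differed: the 10 ran from -0.87 to 1.78 in double against control arrays, with 2 called higher, against 5.93% of all genes called. In oncogene against control arrays they ran from -0.27 to 1.97, with 1 called higher, against 2.04% of all genes called. Epithelial, endothelial, blood, muscle and neural markers averaged between 5.32 and 7.90 in every group, and some differed alongside the members. All 4 epithelial markers had higher means in double than in oncogene arrays (Krt8 at 0.42, Krt18 at 0.79) and than in control arrays (Krt18 at 1.64), none called. Their mean per array was 6.09 to 7.72 in double, 6.07 to 6.99 in oncogene, 6.11 to 6.73 in Wt1-null and 6.02 to 6.40 in control arrays. It was highest in double 5 (7.72), which had the lowest mean over the 41 members, and in double 4 (7.46), while Cdh1, a defining marker, averaged 4.07 in double arrays. All 4 neural markers were higher in double than in oncogene arrays (median 0.37), none called, and their mean per array was 7.23 to 8.32 in double, 7.25 to 7.78 in oncogene, 6.64 to 8.10 in Wt1-null and 7.45 to 7.84 in control arrays. The endothelial marker Tek rose by 1.29 and the macrophage marker Cd68 by 0.80 in double against control arrays (limma adjusted p = 0.044819 and 0.030531), while Cdh5 and Ptprc were at -0.08 and -0.16. The part of these markers in the results on the members was not tested.

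The mean over the 41 members was lowest in the double group, and single arrays spread widely. It was 9.49 ± 0.53 in double arrays (SD, n = 7), 10.03 ± 0.35 in oncogene arrays (n = 5), 9.84 ± 0.65 in Wt1-null arrays (n = 5) and 9.86 ± 0.15 in control arrays (n = 5). The double arrays 1 to 7 read 9.86, 8.90, 9.66, 9.46, 8.77, 10.30 and 9.49, so that double 2 and double 5 lay low and double 6 lay above every control. Without double 2 the mean of the double arrays was 9.59 ± 0.51 (SD, n = 6). The oncogene arrays 1, 3, 4, 5 and 6 read 9.88, 9.70, 9.77, 10.50 and 10.31. The Wt1-null arrays 1 to 5 read 9.48, 8.88, 10.17, 10.23 and 10.45, and the control arrays 1 to 5 read 10.10, 9.70, 9.84, 9.83 and 9.80. All groups overlapped. Controls stood within 0.41 of each other, while the Wt1-null arrays had 2 low and 3 high values, and without Wt1-null 2 their mean was 10.08 ± 0.42 (n = 4). By the numbers of their public records the arrays fell into 3 runs, and no label tells if these were batches of culture or hybridisation. The split of the Wt1-null arrays followed these runs. Wt1-null 1 and 2 were in run 1 with oncogene 1, and Wt1-null 3 to 5 were in run 2 with control 1, the highest control. All double arrays and the other oncogene and control arrays were in run 3, so no run held both double and Wt1-null arrays. In bulk samples a smaller share of cycling cells and less of each RNA per cell cannot be told apart.

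**Figure D1:**
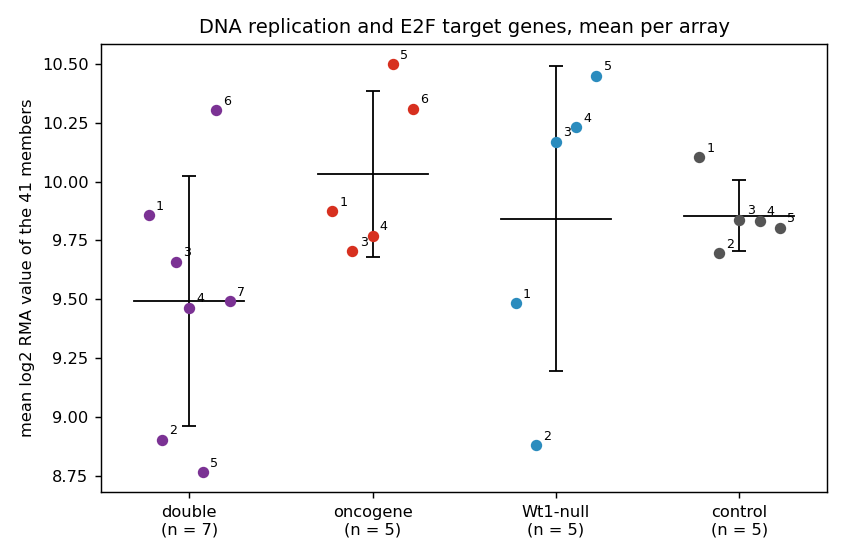
Mean log2 RMA value of the 41 members in each array (y axis), by group (x axis), with the replicate number beside each point, the group mean as a line and the SD as bars. Double arrays span 8.77 to 10.30, oncogene arrays 9.70 to 10.50, Wt1-null arrays 8.88 to 10.45 and control arrays 9.70 to 10.10.

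The members tended to be high or low together within an array. In double 2 and double 5, 38 and 39 of the 41 members lay below all 5 controls, and in Wt1-null 2, 38 did. In oncogene 5 and Wt1-null 5, 37 and 33 members lay above all 5 controls, and in double 6, 29 did. Double 5 held the lowest of all 22 values for 19 members, double 4 for 11 and Wt1-null 2 for 7. Oncogene 5 held the highest for 14 members and Wt1-null 5 for 9. These counts are not given here for all genes, so what is particular to the members cannot be told from them.

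**Figure D2:**
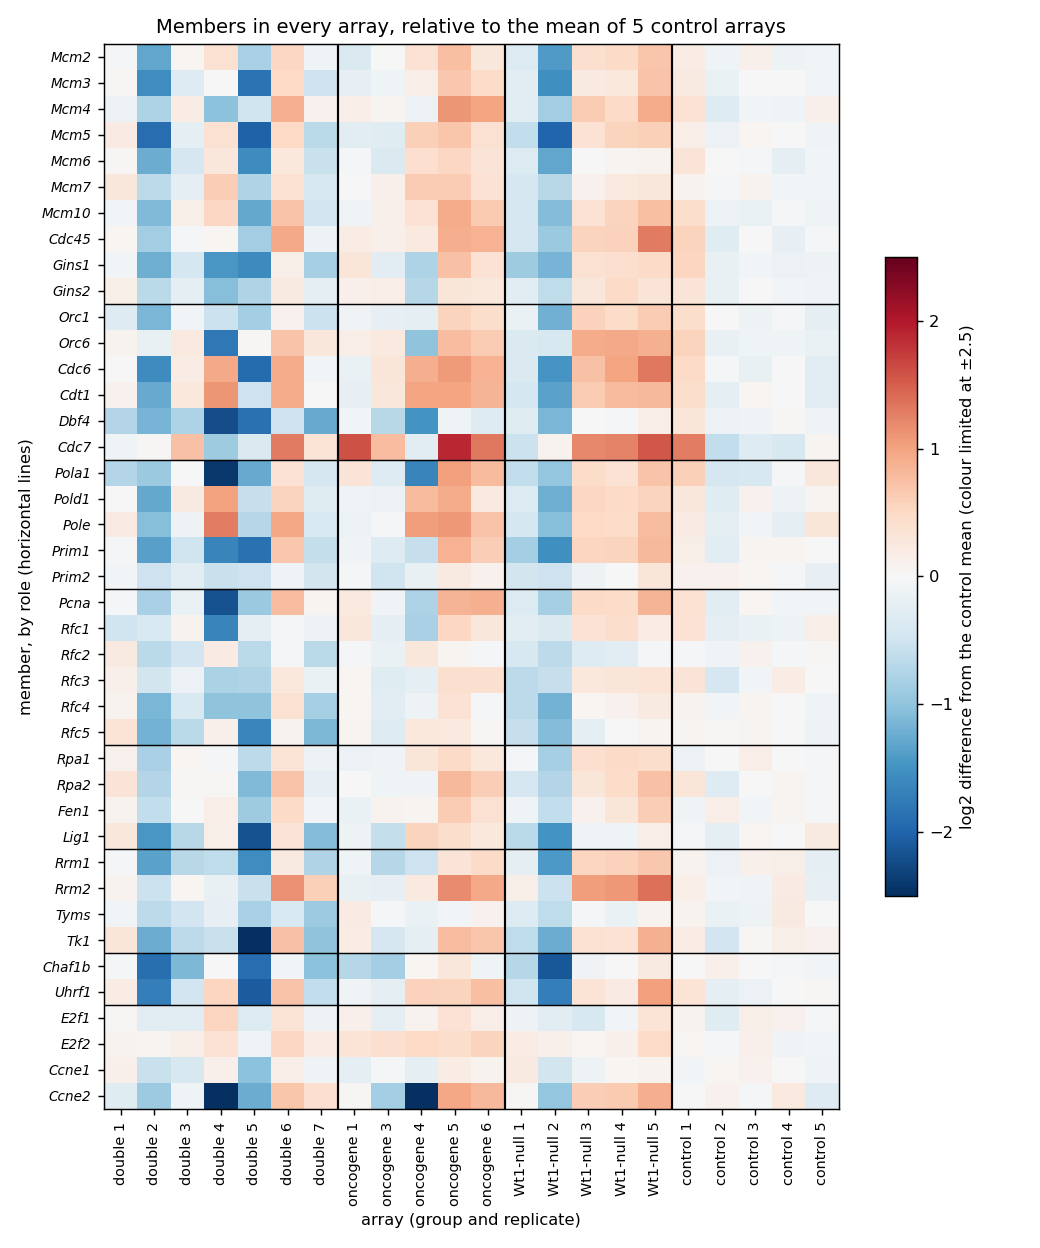
Each row is a member, grouped by role, and each column an array, with double arrays at the left and control arrays at the right. Colour is the log2 difference from the mean of the 5 control arrays, and the columns of double 2, double 5 and Wt1-null 2 are blue for nearly all members while those of oncogene 5 and Wt1-null 5 are mostly red.

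Between double and oncogene arrays, the comparison that asks what Wt1 loss adds to the oncogene in cells that all received Cre, every member had a lower mean in double arrays and none passed the test. The 41 differences ran from -0.91 to -0.12 with a median of -0.56, against a median of 0.01 over all 18193 genes, of which 46.8% were lower. With limma and Benjamini-Hochberg adjustment over all genes, 0 of 41 members were called at an adjusted p below 0.05, as were 0% of all genes. At an unadjusted p below 0.05 there were 9 members (Mcm6, Mcm7, Gins1, Orc1, Dbf4, Rfc4, Rfc5, Tyms and E2f2), against 3.09% of all genes. The arrays of both groups overlapped for every member, and 0.0879% of all genes had groups that did not overlap. Among the arrays of run 3, which held all 7 double, 4 oncogene and 4 control arrays, the median was -0.58 and all 41 members were again lower.

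Against control arrays, 2 members fell in double arrays and 1 rose in oncogene arrays. Double arrays had lower means for 36 of 41 members with a median difference of -0.35, against -0.02 over all genes. With each array left out in turn, double 2 included, that median ran from -0.41 to -0.24. Dbf4 and Tyms were called, 2 of 41 members, against 5.93% of all genes. Dbf4 was also the 1 member whose double arrays all lay below all controls, which held for 4.28% of all genes. In oncogene arrays 35 of 41 members had higher means than in control arrays, with a median difference of 0.16 against -0.03 over all genes, and the median was -0.09 with the replicate number as a block. E2f2 was called, 1 of 41 members against 2.04% of all genes, and it was also the 1 member whose arrays did not overlap, which held for 5.94% of all genes. The members' shares of calls lie near or below those of all genes. Both comparisons share the control arrays.

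**Figure D3:**
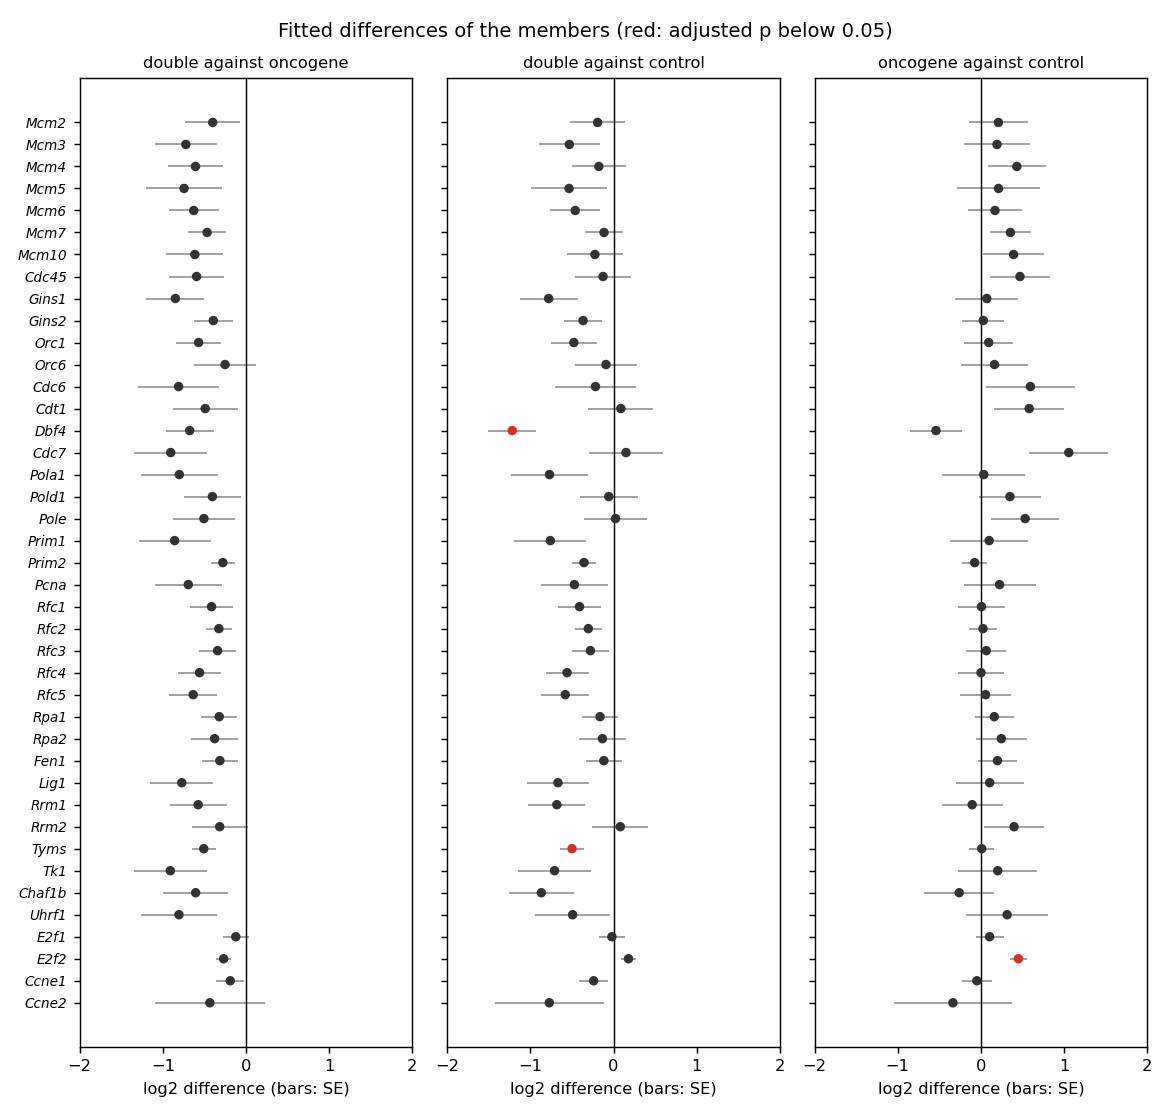
Fitted log2 differences of the 41 members (points) with their standard errors (bars), for double against oncogene, double against control and oncogene against control, with called members in red. All 41 points lie below 0 at the left, and the called ones are Dbf4 and Tyms in the middle panel and E2f2 at the right.

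The MCM helicase and its activators were lower in double than in oncogene arrays at 10 of 10 genes (median -0.61, range -0.85 to -0.39), with none called. The genes are the ring subunits Mcm2 to Mcm7, Mcm10, which helps to start unwinding, the helicase cofactor Cdc45 and the GINS subunits Gins1 and Gins2. Mcm5, whose promoter is shown above, read 9.43 to 11.95 in double arrays with a median of 11.23. It read 11.16, 11.14, 12.05, 12.14 and 11.83 in oncogene arrays and 10.84, 9.48, 11.81, 12.00 and 12.04 in Wt1-null arrays. Controls read 11.62, 11.31, 11.51, 11.46 and 11.37. Double 2, double 5 and Wt1-null 2 lay near 9.5 while 3 other double arrays lay above all controls, and the difference between double and oncogene arrays was -0.75 ± 0.46 (SE; limma adjusted p = 0.999719).

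Gins1 read 6.97 to 8.70 in double arrays with a median of 7.74. Oncogene arrays read 8.87, 8.27, 7.79, 9.30 and 8.92, and Wt1-null arrays 7.67, 7.40, 8.94, 8.98 and 9.04. Controls read 9.10, 8.38, 8.49, 8.41 and 8.43. The groups overlapped, with a difference of -0.85 ± 0.35 (SE; limma adjusted p = 0.999719) between double and oncogene arrays and of -0.78 ± 0.35 (limma adjusted p = 0.21) between double and control arrays. The other 8 genes had differences of -0.72 to -0.39 between double and oncogene arrays, Mcm3 having -0.72 and Mcm6 -0.63. Between oncogene and control arrays all 10 differences were positive, from 0.03 to 0.47, and none was called.

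Origin recognition, licensing and firing held the called gene Dbf4, the activating subunit of the Cdc7 kinase. Dbf4 read 8.31 to 9.99 in double arrays with a median of 9.36. Oncogene arrays read 10.45, 9.82, 9.02, 10.41 and 10.19, Wt1-null arrays 10.21, 9.38, 10.50, 10.50 and 10.68, and controls 10.83, 10.37, 10.44, 10.54 and 10.41. Every double array, double 6 included, lay below every control. Dbf4 fell by 1.22 ± 0.29 (SE; limma adjusted p = 0.016105) in double against control arrays. The differences were -0.68 ± 0.29 against oncogene arrays and -0.54 ± 0.31 for oncogene against control arrays, neither called. Within run 3 the difference of Dbf4 was -1.14 with a limma adjusted p of 0.055057. It was called with each array left out in turn. Its other probe set, at a mean of 3.90, gave -0.12 with no call.

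Cdc7, the kinase itself, passed no test. It read 6.63 to 8.83 in double arrays with a median of 7.56. Oncogene arrays read 9.12, 8.29, 7.25, 9.42 and 8.84, and Wt1-null arrays 6.98, 7.62, 8.73, 8.77 and 9.08. Controls read 8.80, 6.92, 7.19, 7.12 and 7.60. Control 1 stood more than 1 unit above the other controls, and double 6, 3 oncogene arrays and Wt1-null 5 lay above it. The differences were -0.91 ± 0.44 for double against oncogene, 0.15 ± 0.44 for double against control and 1.06 ± 0.48 for oncogene against control arrays, none called (lowest limma adjusted p = 0.295608).

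Cdc6, which helps to load the MCM ring and had the next largest difference of this role, read 6.43 to 9.30 in double arrays with a median of 8.37. Oncogene arrays read 8.20, 8.67, 9.26, 9.42 and 9.22, and Wt1-null arrays 7.99, 6.88, 9.10, 9.34 and 9.68. Controls read 8.84, 8.33, 8.18, 8.36 and 8.10. Double 4 and double 6 lay among the highest arrays and double 2 and double 5 were the lowest with Wt1-null 2, so the difference between double and oncogene arrays was -0.81 ± 0.49 (SE; limma adjusted p = 0.999719). Cdt1, the other loading factor, had -0.49, and Orc1 and Orc6, subunits of the origin recognition complex, had -0.57 and -0.25. All 6 genes of the role were lower in double than in oncogene arrays (median -0.62).

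**Figure D4:**
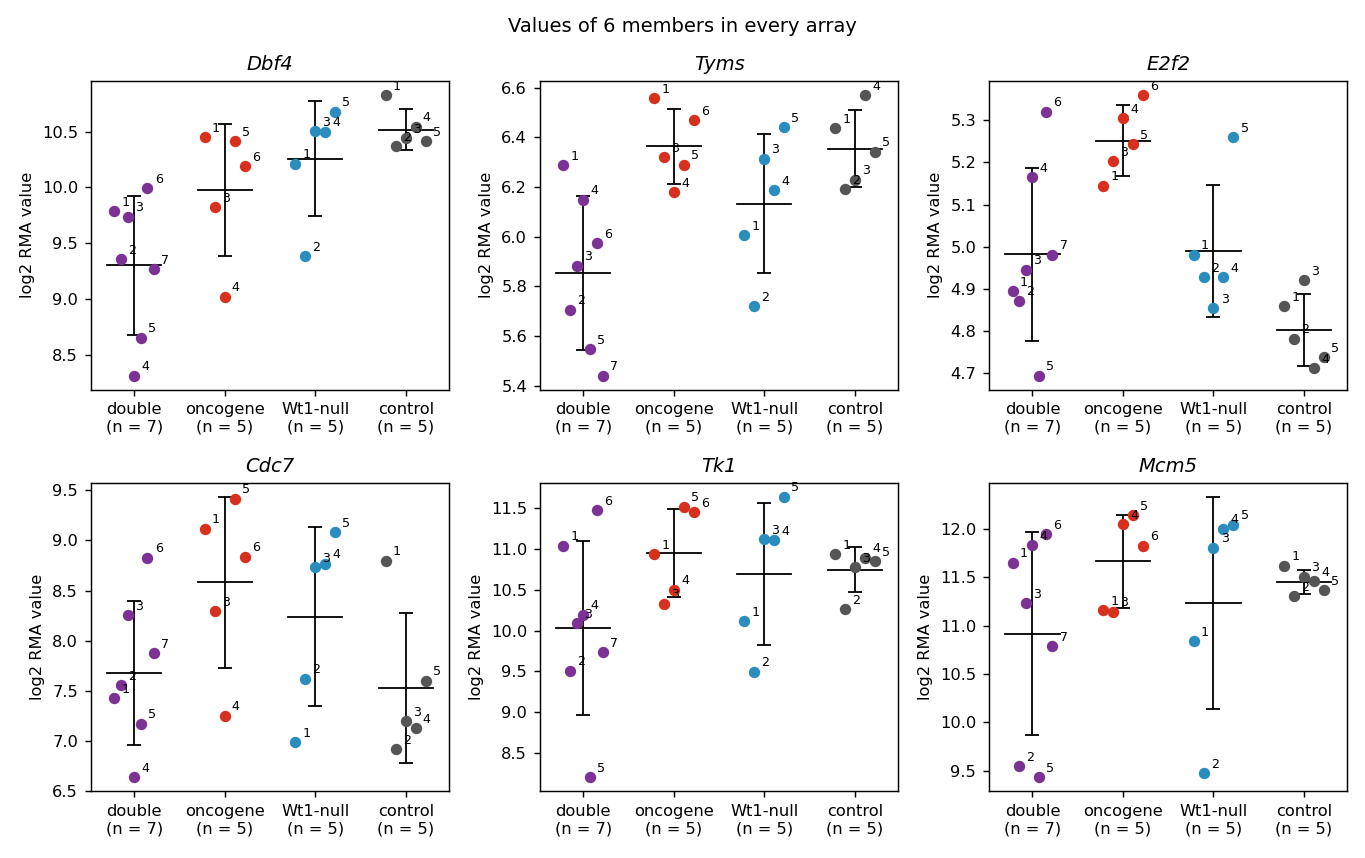
Log2 RMA values (y axis) of Dbf4, Tyms, E2f2, Cdc7, Tk1 and Mcm5 in every array by group (x axis), with replicate numbers, the group mean as a line and the SD as bars. For Dbf4 all double arrays (8.31 to 9.99) lie below all control arrays (10.37 to 10.83), and for E2f2 all oncogene arrays (5.14 to 5.36) lie above all control arrays (4.71 to 4.92).

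DNA polymerases and primase were lower in double than in oncogene arrays at 5 of 5 genes (median -0.51), with none called. Prim1, the catalytic primase subunit that lays the RNA primer, read 8.33 to 10.87 in double arrays with a median of 9.60. Oncogene arrays read 10.10, 9.87, 9.62, 11.07 and 10.81, Wt1-null arrays 9.35, 8.66, 10.74, 10.75 and 11.01, and controls 10.34, 9.94, 10.27, 10.26 and 10.18. Double 2, 4 and 5 lay more than 1 unit below the lowest control while double 6 lay above all controls. The difference was -0.86 ± 0.43 (SE; limma adjusted p = 0.999719) between double and oncogene arrays.

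Pola1, the catalytic subunit of the polymerase that works with primase, read 6.26 to 9.04 in double arrays with a median of 7.95. Oncogene arrays read 9.00, 8.36, 7.01, 9.71 and 9.46, Wt1-null arrays 8.06, 7.70, 9.13, 9.04 and 9.39, and controls 9.28, 8.25, 8.27, 8.62 and 8.95. Double 4 and oncogene 4 were the lowest of their groups. The difference was -0.80 ± 0.46 (SE; limma adjusted p = 0.999719). Pold1 and Pole, the catalytic subunits of the lagging and leading strand polymerases, had -0.41 and -0.51, and the other primase subunit Prim2 had -0.28. Against control arrays the double differences were -0.06 for Pold1 and 0.02 for Pole, against -0.77 for Pola1 and -0.76 for Prim1, with none called.

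The sliding clamp and its loader were lower in double than in oncogene arrays at 6 of 6 genes (median -0.49). Pcna, the clamp that holds polymerases on DNA, read 10.66 to 13.62 in double arrays with a median of 12.69. Oncogene arrays read 13.09, 12.77, 12.07, 13.69 and 13.74, Wt1-null arrays 12.51, 12.01, 13.32, 13.32 and 13.69, and controls 13.23, 12.56, 12.90, 12.78 and 12.78. Double 4 was lowest by more than 1 unit, and the difference was -0.69 ± 0.40 (SE; limma adjusted p = 0.999719). Rfc5, a subunit of the complex that opens the clamp, read 8.57 to 10.55 in double arrays with a median of 9.53. Oncogene arrays read 10.28, 9.87, 10.46, 10.46 and 10.23, Wt1-null arrays 9.63, 9.13, 9.99, 10.20 and 10.28, and controls 10.27, 10.23, 10.27, 10.19 and 10.07. Controls lay within 0.19 of each other, and 4 double arrays lay below them all and 3 above. The difference was -0.64 ± 0.29 against oncogene and -0.58 ± 0.29 against control arrays (SE; limma adjusted p = 0.999719 and 0.265271). Rfc1 to Rfc4, the other loader subunits, had differences of -0.56 to -0.33 between double and oncogene arrays, and of 0.00 to 0.06 between oncogene and control arrays.

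Single-strand binding and Okazaki fragment joining genes were lower in double than in oncogene arrays at 4 of 4 genes (median -0.35). Lig1, the ligase that seals Okazaki fragments, read 8.67 to 11.17 in double arrays with a median of 10.14. Oncogene arrays read 10.72, 10.25, 11.40, 11.28 and 11.10, Wt1-null arrays 10.18, 9.35, 10.73, 10.73 and 11.01, and controls 10.81, 10.61, 10.89, 10.85 and 11.06. Double 1 and double 6 lay above every control, and the difference between double and oncogene arrays was -0.77 ± 0.38 (SE; limma adjusted p = 0.999719). Rpa2, a subunit of the complex that coats single-stranded DNA, read 8.30 to 10.13 in double arrays with a median of 9.43. Oncogene arrays read 9.42, 9.29, 9.31, 10.22 and 10.02, Wt1-null arrays 8.99, 8.67, 9.71, 9.87 and 10.14, and controls 9.72, 9.09, 9.40, 9.48 and 9.35. The groups overlapped throughout, and the difference was -0.38 ± 0.29 (SE). Rpa1, the large subunit of that complex, and Fen1, the flap nuclease, had -0.32 each.

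Deoxynucleotide supply held the called gene Tyms, thymidylate synthase. Tyms read 5.44 to 6.29 in double arrays with a median of 5.88. Oncogene arrays read 6.56, 6.32, 6.18, 6.29 and 6.47, Wt1-null arrays 6.01, 5.72, 6.31, 6.19 and 6.44, and controls 6.44, 6.19, 6.23, 6.57 and 6.34. All double arrays but double 1 lay below the lowest control. Tyms fell by 0.50 ± 0.14 (SE; limma adjusted p = 0.040752) in double against control arrays, with -0.51 ± 0.14 against oncogene arrays (not called) and 0.01 ± 0.15 between oncogene and control arrays. The probe set is dim, at the 33.6th percentile of gene means, and 3 further Tyms probe sets gave -0.33, -0.14 and -0.06 with no call. The call was lost, with adjusted p of 0.051327 to 0.121295, when Wt1-null 4, any 1 control, or double 2, 3, 5 or 7 was left out, and it was 0.092706 within run 3. It was also lost with only the compared groups (0.081563), the run as a fixed block (0.085562) and the replicate block (0.057208).

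Tk1, thymidine kinase of the salvage route, read 8.20 to 11.48 in double arrays with a median of 10.09. Oncogene arrays read 10.94, 10.33, 10.50, 11.52 and 11.45, Wt1-null arrays 10.12, 9.50, 11.12, 11.11 and 11.64, and controls 10.94, 10.26, 10.77, 10.89 and 10.85. Double 5 lay more than 1 unit below every other array, and the difference between double and oncogene arrays was -0.91 ± 0.44 (SE; limma adjusted p = 0.999719). Rrm1, the large subunit of ribonucleotide reductase, read 10.41 to 12.19 in double arrays with a median of 11.28. Oncogene arrays read 11.86, 11.26, 11.45, 12.28 and 12.44, Wt1-null arrays 11.73, 10.52, 12.51, 12.54 and 12.64, and controls 12.05, 11.82, 12.09, 12.11 and 11.74. Double 1 and double 6 lay among or above the controls and the other 5 below them. The difference was -0.58 ± 0.34 against oncogene and -0.68 ± 0.34 against control arrays (SE; limma adjusted p = 0.999719 and 0.273245). Rrm2, the small subunit, had -0.32 and 0.08.

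Behind the fork, Uhrf1, which brings the maintenance DNA methyltransferase to new DNA, read 8.31 to 11.08 in double arrays with a median of 9.90. Oncogene arrays read 10.29, 10.15, 10.96, 10.95 and 11.13, Wt1-null arrays 9.89, 8.67, 10.73, 10.58 and 11.40, and controls 10.73, 10.16, 10.22, 10.38 and 10.41. Double 2, double 5 and Wt1-null 2 were the 3 lowest, and the difference between double and oncogene arrays was -0.81 ± 0.45 (SE; limma adjusted p = 0.999719). Chaf1b, a subunit of the chaperone that lays histones on new DNA, read 7.53 to 9.43 in double arrays with a median of 8.42. Oncogene arrays read 8.73, 8.60, 9.49, 9.73 and 9.34, Wt1-null arrays 8.73, 7.33, 9.35, 9.46 and 9.66, and controls 9.44, 9.56, 9.44, 9.38 and 9.37. Controls lay within 0.19 of each other, and the difference was -0.61 ± 0.39 against oncogene and -0.87 ± 0.39 against control arrays (SE; limma adjusted p = 0.999719 and 0.207484).

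The E2F activators and E cyclins held the called gene E2f2, an activator E2F. E2f2 read 4.69 to 5.32 in double arrays with a median of 4.95. Oncogene arrays read 5.14, 5.20, 5.31, 5.24 and 5.36, Wt1-null arrays 4.98, 4.93, 4.85, 4.93 and 5.26, and controls 4.86, 4.78, 4.92, 4.71 and 4.74. Every oncogene array lay above every control, while double and Wt1-null arrays overlapped both. E2f2 rose by 0.45 ± 0.10 (SE; limma adjusted p = 0.023381) in oncogene against control arrays, and the difference between double and oncogene arrays was -0.27 ± 0.09 with no call. The probe set lay at the 16.1th percentile of gene means, so the rise is one of a dim signal, and the other E2f2 probe set gave -0.06 with no call. The call was lost, with adjusted p of 0.050735 to 0.072055, when control 2, 4 or 5 or oncogene 4, 5 or 6 was left out, with arrays centred on their medians (0.066508), with the replicate block (0.085817), with probe sets averaged (0.348277) and within run 3 (0.052429).

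Ccne2, cyclin E2, was the most variable member. It read 5.40 to 10.04 in double arrays with a median of 9.06. Oncogene arrays read 9.38, 8.50, 6.72, 10.32 and 10.16, Wt1-null arrays 9.37, 8.38, 9.98, 10.00 and 10.27, and controls 9.36, 9.46, 9.30, 9.60 and 9.04. Double 4 and oncogene 4 were far below the rest. The difference between double and oncogene arrays was -0.44 ± 0.66 (SE). It was -0.48 with both arrays 4 left out and 0.09 with double 4 alone left out. E2f1 and Ccne1, the E2F activator and the E cyclin that complete the list, had -0.12 and -0.19.

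Results with the Wt1-null group turned on Wt1-null 2, and no value within 1 run can be given for double against Wt1-null arrays. Double arrays had lower means than Wt1-null arrays for 39 of 41 members (median -0.32, against 0.04 over all genes), and limma called 0 of 41 members, against 0.0824% of all genes. At an unadjusted p below 0.05 there was 1 member, Dbf4 (-0.95 ± 0.29), against 14.8% of all genes, and no member's arrays failed to overlap, against 0.923% of all genes. Without Wt1-null 2 the median was -0.57 with 40 members lower, and 3 members fell, against 5.08% of all genes. At an unadjusted p below 0.05 there were then 12 members, against 19.3% of all genes. The 3 that fell were Dbf4 (-1.17 ± 0.29, limma adjusted p = 0.0215), Orc1 (-0.85 ± 0.22, adjusted p = 0.0309) and Rrm1 (-1.07 ± 0.29, adjusted p = 0.0375). With double 2 left out as well, Dbf4 alone was called, 1 of 41 members against 671 of all 18193 genes, and the median was -0.50. The calls without Wt1-null 2 count the close arrays Wt1-null 3 and 4 separately. With Wt1-null 2 kept and the mean of Wt1-null 3 and 4 in place of both, 0 members and 0 of all genes were called. Array weights, which give less weight to arrays far from their group, called 15 of 41 members, all lower, against 3501 of all 18193 genes. With the run as a fixed block, which links the groups through oncogene 1 and control 1 alone, the median was -0.16 with 0 members called.

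Between Wt1-null and control arrays the differences of the members lay on both sides of 0. Means were lower in Wt1-null arrays for 22 and higher for 19 of the 41 members (median -0.01, against -0.05 over all genes), and without Wt1-null 2 the median was 0.24 with 31 members higher. Limma called 0 of 41 members, against 0.104% of all genes, and 0 members passed an unadjusted p below 0.05, against 12.7% of all genes. No member's arrays failed to overlap, against 5.68% of all genes. Without Wt1-null 2 limma again called 0 members, against 0.0715% of all genes, and Rrm2 (0.92 ± 0.34) had an unadjusted p below 0.05, 1 member against 12.2% of all genes. With all arrays the largest differences were 0.71 ± 0.48 for Cdc7, 0.62 for Rrm2 and -0.53 ± 0.42 for Chaf1b, none called.

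The interaction, which is the double minus Wt1-null difference less the oncogene minus control difference and so includes the change of virus, was negative for 40 of 41 members (median -0.48, against 0.06 over all genes). Limma called 0 of 41 members, against 0.011% of all genes. At an unadjusted p below 0.05 there were 2 members, Cdc7 (-1.62 ± 0.65) and E2f2 (-0.46 ± 0.14), against 8.55% of all genes. Without Wt1-null 2 all 41 were negative (median -0.71), limma called 0 members, against 0.011% of all genes, and 9 had an unadjusted p below 0.05, against 10.4% of all genes. Cdc7 was then at -1.77 ± 0.67 and E2f2 at -0.47 ± 0.15. With array weights 24 of 41 members had a called interaction, all negative, against 2748 of all 18193 genes. The F test of any difference over the 4 groups called 0 of 41 members, against 3.02% of all genes, and 3 members (Dbf4, Tyms and E2f2) had an unadjusted p below 0.05, against 17% of all genes. Without Wt1-null 2 it called 2 members, Dbf4 and Tyms, against 6.26% of all genes.

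The members varied more between arrays of a group than genes at large. The median within-group SD was 0.60 for the members and 0.26 for all genes, and 38 of the 41 members lay above the all-gene median. Among the members it ran from 0.15 for E2f2, which was also the dimmest, to 1.19 for Ccne2. The members and all genes were not matched for signal. In double 4 and oncogene 4 the members did not move as a single block, and most but not all moved the same way in both. These arrays had the lowest mean correlation with the others (0.9305 and 0.9583). Over all genes their deviations from their group means correlated at 0.77, and the share of all genes moving the same way is not given here. Set against the median of the other arrays of their group, 16 members were lower in both arrays, 14 higher in both and 11 lower in 1 and higher in the other. Ccne2 was at -3.74 and -3.04 in double 4 and oncogene 4, Pcna at -2.08 and -1.32, Pola1 at -1.84 and -2.22 and Orc6 at -1.95 and -1.45. Pole was at 1.54 and 0.72, Pold1 at 1.17 and 0.71 and Mcm5 at 0.82 and 0.55. What these 2 arrays share beyond the replicate number was not tested.

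Most members had more than 1 probe set, which gives another reading of the same gene. Of the 41 members 8 had 1 probe set, 20 had 2, 10 had 3, 2 had 4 and 1 had 5. Over the 50 probe sets that were not used above, 47 were lower in double than in oncogene arrays (median -0.36) and 45 lower in double than in control arrays (median -0.20). Of all genes, 46.8% and 54.6% were lower in these 2 comparisons. In a fit over all probe sets 1 of the 50 was called, 1 of the 2 further probe sets of the clamp loader subunit Rfc1, which fell by 0.99 ± 0.29 in double against control arrays (SE; limma adjusted p = 0.047629). Of all genes 5.93% were called in that comparison, and the share of all probe sets called is not given here. The probe set of Rfc1 used above had -0.41 and its other one -0.48, neither called. Between oncogene and control arrays 18 of the 50 were lower (median 0.04), against 56.2% of all genes.

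Other genes of the same pathway were read from lists chosen with earlier results of these data known. Between double and oncogene arrays 24 of 25 further replication genes had lower means (median -0.37), as had 16 of 16 measured further E2F targets (median -0.65), with 0 called in either list. Clspn, which relays fork damage to the checkpoint, had -0.91, the nuclease-helicase Dna2 -0.80 and the licensing inhibitor Gmnn -0.79. Among the E2F targets the DNA repair gene Brca1 had -0.87, the chromatin remodeller Hells -0.86 and Atad2, a bromodomain ATPase, -0.81. Against control arrays 2 of the 25 replication genes fell in double arrays, where 5.93% of all genes were called. They were Pole4, a small polymerase epsilon subunit, by 0.82 ± 0.20 and the GINS subunit Gins4 by 0.41 ± 0.12 (SE; limma adjusted p = 0.018077 and 0.046135).

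The E2F and Rb family, the G1/S kinases and cyclins and the CDK inhibitors were more mixed. Of 11 E2F and Rb family genes 7 had lower means in double than in oncogene arrays (median -0.14), the Rb relative Rbl1 at -0.84 and the repressors E2f7 and E2f8 at -0.77 and -0.40. E2f8 was at 1.36 ± 0.44 in double and at 1.76 ± 0.48 in oncogene against control arrays, neither called (limma adjusted p = 0.073363 and 0.059491). Of 8 G1/S kinases and cyclins 6 were lower (median -0.16), with Ccna2, cyclin A2, at -1.01, Cdk2 at -0.43 and the phosphatase Cdc25a at -0.35, and 3 of 7 CDK inhibitors were lower (median 0.04). In double against control arrays the G1 cyclin Ccnd1 rose by 0.52 ± 0.15 and the CDK inhibitor Cdkn1c by 0.99 ± 0.28 (SE; limma adjusted p = 0.044022 and 0.035994). The CDK inhibitor Cdkn1b fell by 1.13 ± 0.27 (SE; limma adjusted p = 0.016415). Of all genes 5.93% were called in that comparison. Cdkn2a, the locus of the INK4A and ARF inhibitors, was at 0.71 ± 0.48 against oncogene and at 1.42 ± 0.48 against control arrays, neither called (limma adjusted p = 0.999719 and 0.083344).

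Mitosis genes, which act after replication in the same cycle, were lower in double than in oncogene arrays at 26 of 26 genes with a median of -0.90, against -0.56 for the 41 members, and 0 were called. Mki67, the Ki-67 antigen, had -1.18 ± 0.54, the kinetochore gene Cenpf -1.15 ± 0.51 and the topoisomerase Top2a -1.03 ± 0.44. Their mean per array was 9.69 ± 0.67 in double, 10.59 ± 0.53 in oncogene, 10.55 ± 0.82 in Wt1-null and 10.50 ± 0.29 in control arrays (SD, n = 7, 5, 5 and 5). Without Wt1-null 2 it was 10.85 ± 0.56 in Wt1-null arrays (n = 4). The difference in size between the lists was not tested.

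**Figure D5:**
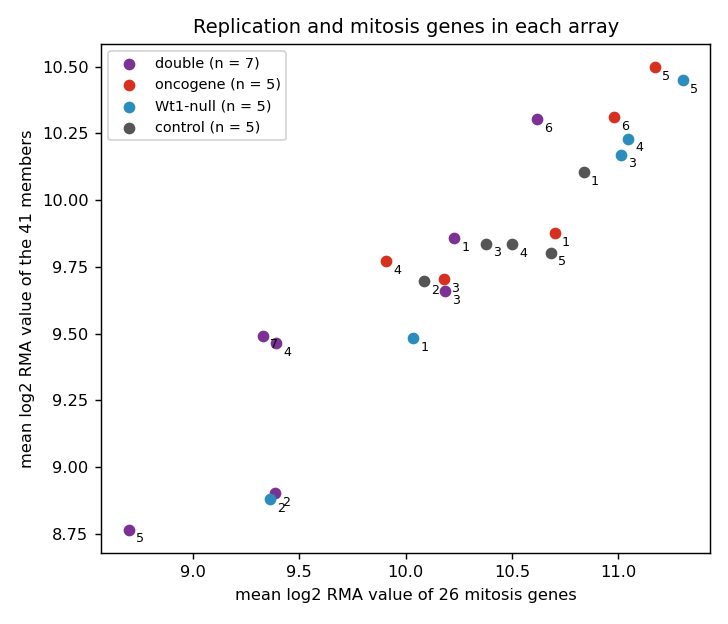
Mean log2 RMA value of the 41 members (y axis) against that of 26 mitosis genes (x axis) in each array, coloured by group with replicate numbers. Arrays low for one list tend to be low for the other, with double 5 at the lower left (8.77 and 8.70) and Wt1-null 5 and oncogene 5 at the upper right. Double 7 and double 4 are as low as double 2 and Wt1-null 2 for mitosis genes (9.33 and 9.39) but less low for the members (9.49 and 9.46).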

How the data were processed

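The authors deposited log2 values made with RMA in Affymetrix Expression Console, as the series' design text and the submitters' processing notes state. No version of that software is given in the sources used here. RMA gives every array the same distribution and so masks shifts common to most RNAs and shrinks differences of dim probe sets. The values ran from 3.29 to 15.14. The table held 45101 probe sets. The platform annotation named 1 gene for 34945 of them, several genes for 932 and none for 9160, and 64 were controls. By gene ID, 34741 of the 34945 were found in RefSeq's GRCm38.p6 gene table, with 0 symbols updated. Each of 18193 genes was read from its probe set with the highest mean. Of Tyms, a further probe set shared with its pseudogene was not used.

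Group means over all 22 arrays were fitted with limma 3.58.1 in R 4.3.3 (lmFit and eBayes), with Benjamini-Hochberg adjustment over all genes and calls at an adjusted p below 0.05. The test was run on simulated data with independent noise for each gene and array, whereas the members here moved together within arrays. What it recovered there is not given here. No p is given for the list or for its mean per array. The members, the lists and the tests were chosen with earlier results of these data known. Values in every array are given for called members and for the 2 members of each role with the largest difference between double and oncogene arrays. Of each other list the called genes and the 3 with the largest such difference are named. Alternatives varied the probe set summary, filter, normalization, weights, blocks and arrays. Scanner files and detection calls were not used here. Precision is limited by how many arrays each group has. The design text names 6 oncogene samples, of which 5 were used here. The oncogene is not reported here by name.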

Additional observations from a re-analysis of the deposited data

Results flagged for a closer look

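Among 76 groups tested (the members with values in every array, and the mean per array, in each of 4 groups), 3 held an array far from the others of its group. Chance flags about 1 in 20 groups. Ccne2 read 5.40 in double 4, against 8.10 to 10.04 in the other double arrays. Gins1 read 9.10 in control 1, against 8.38 to 8.49 in the other controls. Tk1 read 10.26 in control 2, against 10.77 to 10.94 in the other controls.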

How the results depend on the processing

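For double against oncogene, 0 members were called under all 36 alternatives, and the median stayed between -0.76 and -0.40. For double against Wt1-null (0 called) the count was 15 with array weights, 1 with both Wt1-null 2 and double 2 left out, an alternative added after the data were seen, and 0 to 3 with single arrays left out. For double against control (2 called) it was 9 with weights, 1 with only the compared groups or a fixed block for the run of records, 0 within 1 run, and 1 to 2 with single arrays left out. For oncogene against control (1 called) it was 0 with probe sets averaged, with a filter at a mean of 5.5 (which removes E2f2), with centring or within 1 run, 4 with weights, and 0 to 1 with single arrays left out. For Wt1-null against control it was 4 with weights, and for the interaction 24 with weights, where the median was -1.0. For the F test (0 called) it was 1 with probe sets averaged, quantile normalization repeated, centring or a trended robust variance, 29 with weights, 2 without both arrays 4, 1 without both arrays 2, and 0 to 2 with single arrays left out. The cause of these changes was not tested.

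Counts over all genes moved as well. As reported, with weights, and as the range over the other alternatives, they were 15, 3501 and 0 to 925 for double against Wt1-null, 1078, 6036 and 568 to 1831 for double against control, and 371, 4417 and 139 to 770 for oncogene against control. They were 19, 6016 and 2 to 599 for Wt1-null against control, 2, 2748 and 0 to 5 for the interaction, and 549, 8437 and 229 to 1138 for the F test.

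The groups share replicate numbers, and whether these pair the arrays is not settled here. Deviations of same-numbered arrays from their group means correlated at -0.47 to 0.77, with 13 of 28 pairs above 0.1. The highest were oncogene 4 with double 4 (0.77), oncogene 6 with double 6 (0.62) and Wt1-null 2 with double 2 (0.60). Arrays with different numbers were not compared in this way. With the replicate block 1 member was called in double against control, 0 in oncogene against control, where the median was -0.09, and 0 in the others. The median of Wt1-null against control, -0.01, lay above 0 in 6 alternatives, at up to 0.32 with weights. E2f2 and Tyms rest on dim probe sets.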
